A study of Saccharomyces cerevisiae with 6 samples.

Results

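The reversible glycolytic enzyme genes are the 10 yeast genes PGI1, FBA1, TPI1, TDH1, TDH2, TDH3, PGK1, GPM1, ENO1 and ENO2, taken by gene symbol from a deposited table of 6932 entries. All 10 have an entry of their own. They encode the enzymes of the 7 reactions that glycolysis and gluconeogenesis share. They were also selected with earlier results of every comparison between genotypes known, among them their low values in a bas1 mutant. Their differences are therefore given as a description in each comparison, that of ino4 with WT included. RNA was sequenced from meiotic cultures of Saccharomyces cerevisiae of 3 genotypes labelled WT, bas1 and ino4, with 2 samples per genotype, all collected at 4 h in meiosis in potassium acetate at 30 °C. Bas1 is a Myb-related activator of purine and histidine synthesis genes, and Ino4 is a helix-loop-helix activator of phospholipid synthesis genes. The alleles, strain background and ploidy are not given in the labels used here, nor is it said whether the 2 samples of a genotype were separate cultures. The table gives a single FPKM per gene and genotype (mapped fragments scaled to the length of the gene model and to the size of the library), so there is no spread between samples, no test was possible, and every difference below compares combined values without a replicate check.

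Glycolysis splits hexose phosphate into triose phosphates and turns these into pyruvate. The reactions of the 10 genes run near equilibrium and serve both directions, while hexokinase, phosphofructokinase and pyruvate kinase act only in glycolysis and fructose-1,6-bisphosphatase (FBP1) and phosphoenolpyruvate carboxykinase (PCK1) act only in gluconeogenesis. Sporulating yeast fed acetate makes its hexose phosphate by gluconeogenesis, and spore walls and storage carbohydrate draw on it. In growing yeast, the glycolytic genes are activated by Gcr1 with Gcr2 and Rap1, and are among the most strongly transcribed genes of the cell.

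All 10 genes had their lowest value in bas1, at 2.78-fold to 5.45-fold below WT, while in ino4 they lay between 1.71-fold below and 1.13-fold above WT. Their FPKM summed to 10417 in WT, 2620 in bas1 and 9826 in ino4, or 0.955%, 0.253% and 0.904% of the FPKM summed over the 6188 entries above 0 in every genotype. The summed level was thus 3.98-fold lower in bas1 and 1.06-fold lower in ino4 than in WT. The median member reached 540.1 FPKM in WT, 163 in bas1 and 507 in ino4, against medians of 53.5, 53.6 and 53.6 over the 6153 compared entries, those that reached 1 FPKM in some genotype and were above 0 in all 3.

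**Figure D1:**
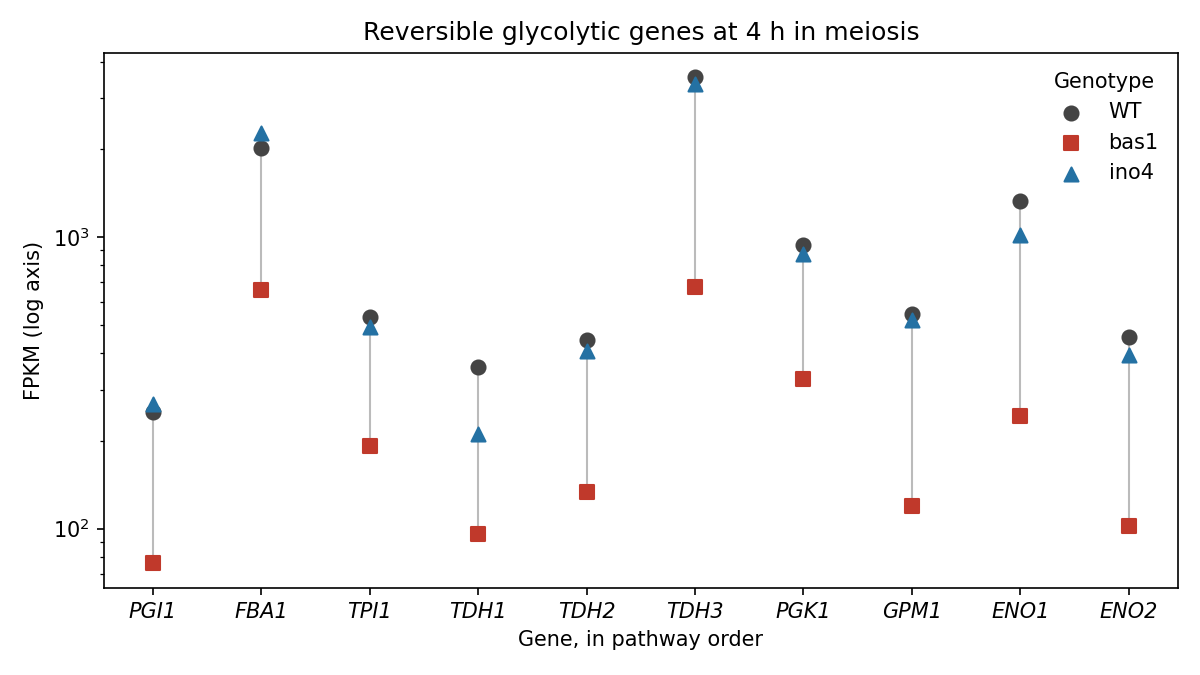
FPKM of each gene in each genotype, on a log axis, with genes in pathway order and 1 point per genotype (the authors' combined value, so there are no error bars). In every gene the bas1 point is the lowest, and the WT and ino4 points are farthest apart at TDH1, with 359.9 in WT and 210.5 in ino4.

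The opening steps carry the sugar from glucose-6-phosphate to triose phosphate. PGI1, the isomerase of glucose-6-phosphate and fructose-6-phosphate (sacCer2 chromosome II, 612231 to 613895), reached 251 FPKM in WT, 76.0 in bas1 and 268 in ino4. It was the lowest of the 10 genes in WT and in bas1, and it was 3.30-fold lower in bas1 and 1.07-fold higher in ino4 than in WT. FBA1, the aldolase that splits fructose-1,6-bisphosphate (chromosome XI, 326052 to 327131), stood at 2018 in WT against 657 in bas1, with 2281 in ino4. That is 3.07-fold lower in bas1 and 1.13-fold higher in ino4, the highest ino4 value relative to WT among the members. TPI1, which interconverts the triose phosphates (chromosome IV, 555725 to 556471), measured 533 in WT, 192 in bas1 and 492 in ino4. Its ratio of 2.78 between WT and bas1 was the smallest of the 10.

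Glyceraldehyde-3-phosphate dehydrogenase, which oxidises the triose phosphate and reduces NAD+, is encoded by 3 genes. TDH3, the main isozyme gene of growing cells (chromosome VII, 882817 to 883815), had the highest FPKM of the members in every genotype, with 3536 in WT, 674 in bas1 and 3361 in ino4. It ranked 31 among all entries of the table in WT, 293 in bas1 and 30 in ino4. Its FPKM was 5.25-fold lower in bas1 than in WT. TDH2 (chromosome X, 453676 to 454674) had 443, 134 and 407 in WT, bas1 and ino4, a ratio of 3.30 between WT and bas1. TDH1, an isozyme gene linked in growing yeast to stress and to slow growth (chromosome X, 338266 to 339264), measured 359.9 in WT, 95.7 in bas1 and 210.5 in ino4. Relative to WT, TDH1 was the lowest member in ino4, at 1.71-fold below against 1.09-fold for TDH2 and 1.05-fold for TDH3. Summed over the 3 genes, the FPKM was 4339 in WT, 903 in bas1 and 3979 in ino4, which is 4.80-fold lower in bas1 and 1.09-fold lower in ino4.

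The step after it is that of PGK1, the phosphoglycerate kinase that makes ATP (chromosome III, 137744 to 139047), which reached 944 FPKM in WT, 326 in bas1 and 875 in ino4. It was 2.89-fold lower in bas1, between the ratios of TPI1 and FBA1. GPM1, the phosphoglycerate mutase (chromosome XI, 163605 to 164390), measured 547 in WT, 119.9 in bas1 and 521 in ino4, a 4.56-fold lower value in bas1. The enolase genes follow. ENO1 (chromosome VII, 1000932 to 1002245), whose product is less tied to glucose than that of ENO2, measured 1331 in WT, 244 in bas1 and 1017 in ino4. It had the largest ratio of the members between WT and bas1, 5.45, and was 1.31-fold lower in ino4. ENO2 (chromosome VIII, 451327 to 452640), the glucose-induced enolase gene, measured 455 in WT, 102 in bas1 and 394 in ino4, which is 4.47-fold lower in bas1 and 1.15-fold lower in ino4.

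By reaction, the ratios between WT and bas1 were 3.30 for the isomerase PGI1, 3.07 for aldolase, 2.78 for triose phosphate isomerase, 4.80 for the dehydrogenase, 2.89 for phosphoglycerate kinase, 4.56 for the mutase and 5.16 for enolase. The 3 reactions with a ratio above 4 all lie below triose phosphate, with PGK1 between them at a ratio like that of the upper steps. In the absence of a spread between samples, neighbours in this order cannot be told apart. The order of the levels was TDH3, FBA1, ENO1, PGK1, GPM1, TPI1, ENO2, TDH2, TDH1 and PGI1 in WT. In ino4 the order differed only by 2 exchanges of neighbours at its lower end, TDH2 with ENO2 and PGI1 with TDH1. In bas1, PGK1 stood above ENO1, and TPI1 and TDH2 stood above GPM1 and ENO2. The highest member exceeded the lowest 14.1-fold in WT, 8.86-fold in bas1 and 16.0-fold in ino4.

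The isozyme genes share sequence, and how the authors' tools divided reads that match several genes is not given, so the split between them is less certain than their sum. In the RefSeq R64 genome, an assembly of another build than the sacCer2 of the table and of the reference strain S288C, the coding sequences of TDH2 and TDH3 matched at 957 of 999 positions (95.8%), with an unbroken identical run of 173 bases. TDH1 matched TDH2 at 90.2% and TDH3 at 88.9%, and ENO1 matched ENO2 at 94.8% of 1314 positions. Of all 30-base words in each coding sequence, 52.0% in TDH2, 44.5% in TDH3, 27.1% in TDH1 and 40.0% in each of ENO1 and ENO2 occur elsewhere in the genome. For PGI1, FBA1, TPI1, PGK1 and GPM1 the share was 0%. The following 60-base stretches, coding positions 64 to 123 of the TDH genes and 340 to 399 of the ENO genes, are those where the genes of each family differ most and are shown because they are where a read could best tell the genes apart. Capitals mark positions where the genes of the family are not all alike, 21 in the TDH stretch and 13 in the ENO stretch, and coordinates are those of R64.
TDH1 (chrX:338334-338393, plus strand): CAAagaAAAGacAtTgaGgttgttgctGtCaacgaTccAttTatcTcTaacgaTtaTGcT
TDH2 (chrX:454559-454618, minus strand): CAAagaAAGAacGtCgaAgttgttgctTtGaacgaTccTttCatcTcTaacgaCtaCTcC
TDH3 (chrVII:883688-883747, minus strand): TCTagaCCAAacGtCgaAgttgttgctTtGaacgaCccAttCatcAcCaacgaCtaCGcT
ENO1 (chrVII:1001266-1001325, plus strand): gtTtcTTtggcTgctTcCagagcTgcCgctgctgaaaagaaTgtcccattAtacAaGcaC
ENO2 (chrVIII:451666-451725, plus strand): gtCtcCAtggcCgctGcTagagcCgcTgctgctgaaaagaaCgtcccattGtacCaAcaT

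In WT, TDH3 supplied 81.5% of the summed TDH level, TDH2 10.2% and TDH1 8.30%. The TDH3 share was 74.6% in bas1 and 84.5% in ino4. TDH2 held 14.8% in bas1 and 10.2% in ino4, and TDH1 held 10.6% and 5.29%. TDH3 was thus the main form in every genotype, and the TDH1 share in ino4 was the lowest of the 3 genotypes. ENO1 held 74.5% of the enolase level in WT, 70.6% in bas1 and 72.05% in ino4. With 1 value per genotype, none of these shares can be said to differ between genotypes beyond the spread of samples.

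**Figure D2:**
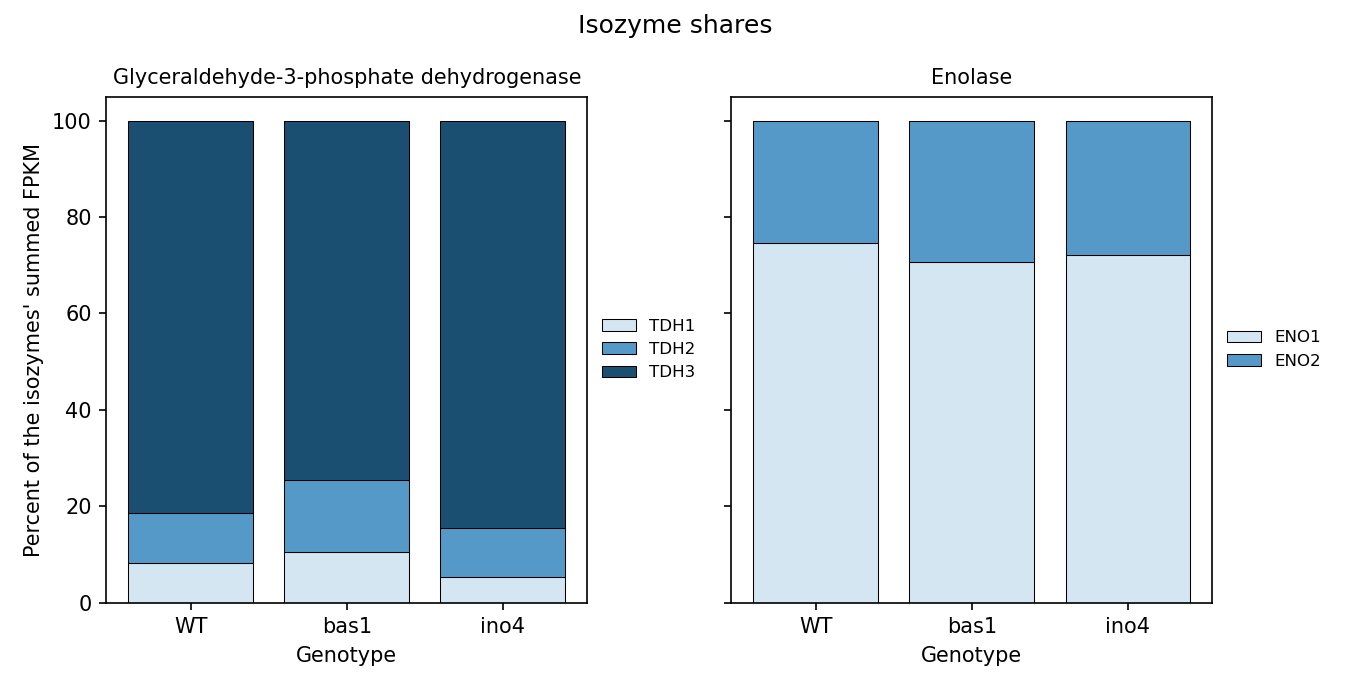
Stacked bars give the percent of the FPKM summed over the isozyme genes that each gene holds, per genotype, for glyceraldehyde-3-phosphate dehydrogenase (left) and enolase (right). TDH3 holds 74.6% to 84.5% and ENO1 holds 70.6% to 74.5%.

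To set the members beside all genes, differences were taken in log2(FPKM + 1), a scale on which low genes differ less than by their ratio, and an entry was called at least 2-fold apart when the difference was 1 or more in size. All 10 of 10 members were called at least 2-fold lower in bas1 than in WT, against 144 of 6153 compared entries (2.34%), and 0 were called higher, against 60 (0.975%). Rescaling the columns to a fixed sum turned the split over all entries into 102 lower and 91 higher and left all 10 members called lower. Their differences ran from -2.44 at ENO1 to -1.47 at TPI1 with a median of -1.81, against a median of 0.01 over all compared entries. In the order of all compared entries from the lowest difference upward, ENO1 was 5th, TDH3 was 6th, GPM1 was 10th and TPI1, the last member, was 44th. The members were chosen with these values known, so the counts describe them and are no test. Of 864 other entries with a WT FPKM at or above the 251 of PGI1, 37 (4.28%) were called at least 2-fold lower in bas1. In the same set 5 (0.579%) were called higher, and the median difference was -0.04. The set was chosen on the WT level alone, which favours entries with a lower value in bas1.

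The comparison of ino4 with WT addressed how transcript levels at this time in meiosis differ where Ino4 is lacking. None of the 10 members was called at least 2-fold lower or higher, against 108 (1.76%) and 42 (0.683%) of all compared entries. FPKM was lower in ino4 for 8 of the 10 and higher for PGI1 and FBA1. The direction of TDH3, at -0.07, turned to 0.03 under quantile normalization. The median difference was -0.11, near the median of all entries (0.00), and TDH1 at -0.77 was the member farthest from 0. That value placed TDH1 181st from the lowest of 6153. The members were chosen with earlier results of this comparison known too, so these counts are no test.

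Set against each other, the mutants differed at all 10 genes. Lower values in bas1 passed the 2-fold rule in 10 of 10 cases, where 171 of 6153 entries (2.78%) did so, and 0 were called higher, against 171 (2.78%). With the columns rescaled to a fixed sum these counts over all entries were 134 and 208. The ratios of ino4 to bas1 ran from 2.20 at TDH1 to 4.99 at TDH3, with GPM1 at 4.35 and ENO1 at 4.16. This comparison shares the bas1 values with that of bas1 against WT, so it is not a separate result.

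**Figure D3:**
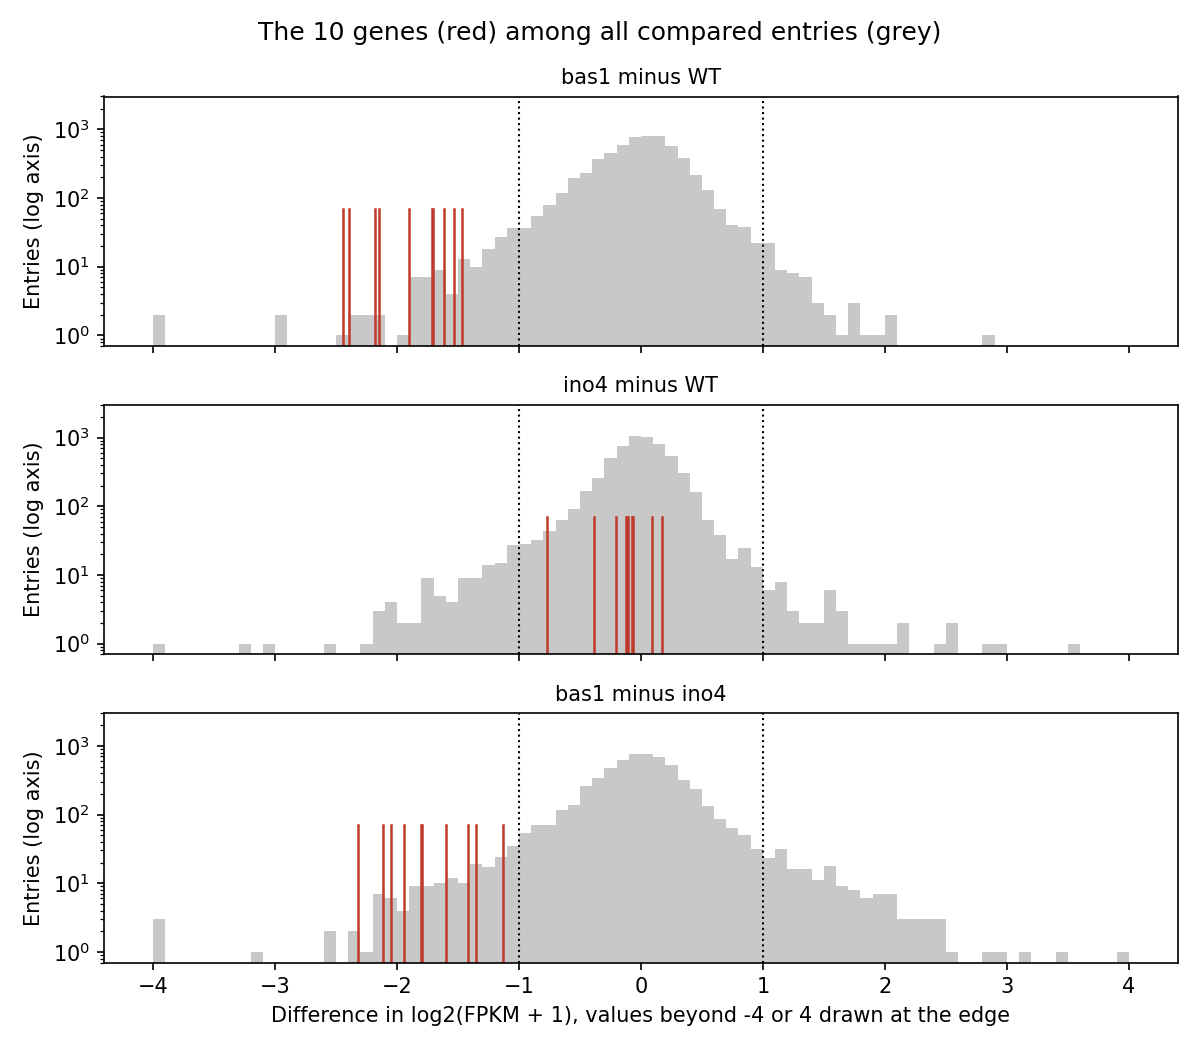
Grey bars count the 6153 compared entries by their difference in log2(FPKM + 1) on a log axis, and red lines mark the 10 genes; dotted lines mark a difference of 1 in either direction. The red lines lie between -2.44 and -1.47 for bas1 minus WT, between -0.77 and 0.18 for ino4 minus WT and between -2.32 and -1.13 for bas1 minus ino4.

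The targeted genes followed the labels. BAS1 reached 19.4 FPKM in WT, 0.00985 in bas1 and 21.1 in ino4. INO4 had 307, 271 and 0.339. Markers of meiosis were present in every genotype, with IME1, the inducer of meiosis, at 7919 in WT, 7959 in bas1 and 6261 in ino4. All 12 meiotic markers listed were at or above their WT level in bas1, with a median difference of 0.30 and a range of 0.01 to 1.50, and CDC5 and SPS1, genes used later in meiosis, were called at least 2-fold higher. In ino4 the median was -0.04, and SPS1 and SPS4 were called lower. Over all compared entries, 0.975% were called higher in bas1, and 1.76% lower and 0.683% higher in ino4. Of the 12 markers, 10 were not called in bas1 and 10 were not called in ino4. Marker values in bas1 thus lay above WT, where those of the glycolytic genes lay below, but mostly by less than 2-fold. The part of the markers in the glycolytic differences was not tested. Of 8 haploid mating markers, none was at 0, 4 were higher and 4 lower in bas1 than in WT, and the a-factor gene MFA2, a short entry, was called higher in ino4. In cultures measured as a whole, a lower level per cell and fewer cells that express a gene cannot be told apart.

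The members lie on 7 chromosomes, and 20 compared entries flank them without overlap. Between bas1 and WT 0 of these were called, beside 2.34% of all compared entries called lower and 0.975% called higher, a background at which a count of 0 among 20 does not set the flanking entries apart from other entries. YBR196C-A beside PGI1, with 3.44 FPKM in WT, 7.41 in bas1 and 25.2 in ino4, was the 1 flanking entry called higher in ino4 than in WT and the 1 called lower in bas1 than in ino4. Of all compared entries, 0.683% were called higher in ino4 than in WT and 2.78% lower in bas1 than in ino4. The median difference of the flanking entries was -0.01, from -0.91 at YJR008W beside TDH2 to 0.92 at YBR196C-A beside PGI1. Entries listed at the position of a member were lower in bas1 with it. YCR013C, an open reading frame at the position of PGK1, reached 106 FPKM in WT, 40.7 in bas1 and 96.0 in ino4. YKL153W, at the position of GPM1, had 74.1, 19.8 and 34.9, so that it was 2.12-fold lower in ino4 than in WT where GPM1 was 1.05-fold lower. Both are named for the strand opposite to their partner, and no source used here says whether strand was counted, so reads of the member and of the other entry cannot be told apart. The other 8 members share their position with no entry. The table spans 1304 bp for PGK1 and 786 bp for GPM1, against coding lengths of 1251 and 744 bp in R64, where each of the 10 genes is 1 coding exon.

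Genes of adjoining pathways were taken from lists chosen, like the members, with earlier results of these data known. The list of 7 irreversible glycolytic genes had a median of -0.49 in bas1 against WT. In it, 1 gene was called at least 2-fold lower (2.34% of all compared entries) and 0 higher (0.975%). That was CDC19, the main pyruvate kinase gene, at 842 FPKM in WT, 237 in bas1 and 869 in ino4, 3.55-fold lower in bas1. CDC19 shares its listed position with another entry, as PGK1, GPM1 and GLK1 do. Its minor isozyme gene PYK2 had 37.3, 35.9 and 34.5. PFK1 and PFK2, the phosphofructokinase subunit genes, had 241 and 232 in WT and 171 and 134 in bas1. The hexose kinase genes HXK1, GLK1 and HXK2 had ratios of 1.14, 1.61 and 1.36 between WT and bas1, the first and second as entries merged with a neighbour. GLK1 was also called lower in bas1 than in ino4, as was CDC19. These were 2 of the 7 genes, against 2.78% of all compared entries.

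The 8 genes of the ethanol branch had a median of -0.90 in bas1 against WT. Of these, 0 were called higher (0.975% of all compared entries), 5 lay between and 3 were called at least 2-fold lower (2.34%). These were ADH1, the main alcohol dehydrogenase of fermentation, at 872 in WT, 301 in bas1 and 862 in ino4, ADH2, the ethanol-oxidising form, at 453, 178 and 533, and PDC1, the main pyruvate decarboxylase, at 751, 297 and 747. Against ino4, PDC6 and ADH5 were called lower in bas1 too. That made 5 of the 8 called lower and 0 higher, against 2.78% and 2.78% of all compared entries. The mitochondrial form ADH3 had 413, 391 and 474.

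Genes of acetate use and of the steps that act only toward hexose had values nearer to WT in bas1, or above it. Of 9 genes of gluconeogenesis and the glyoxylate cycle, 0 were called at least 2-fold lower or higher in bas1 than in WT. Over all compared entries 2.34% were called lower and 0.975% higher, so a count of 0 among 9 does not set this list apart. In the list, 6 genes had a higher and 3 a lower value, and the median was 0.25. PCK1 reached 1859 FPKM in WT, 2903 in bas1 and 1447 in ino4. It was called higher in bas1 than in ino4 with a difference of 1.00, as were 2.78% of all compared entries. PCK1 lies 3049 bp from the BAS1 entry on chromosome XI, and an effect of the altered locus on it was not tested. FBP1, the bisphosphatase gene, measured 121 in WT, 108 in bas1 and 127 in ino4. ICL1, encoding isocitrate lyase, had 566, 856 and 521, and MLS1, encoding malate synthase, had 1701, 2279 and 1574. In WT the level of FBP1 was thus below that of every reversible gene, and that of PCK1 was exceeded among them by TDH3 and FBA1.

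For the side branches of the pathway the lists are short, and 2.34% of all compared entries were called lower and 0.975% higher in bas1. At these shares, the few calls in bas1 against WT do not set the side branches apart from other entries. None of 7 glycerol branch genes was called in bas1 against WT, where the largest difference was at GUT1, the glycerol kinase gene, at 39.3 FPKM in WT and 22.9 in bas1. Of 10 pentose phosphate genes, TKL2, a transketolase gene whose entry is merged with a neighbour, was called lower, with 284 in WT and 125 in bas1, and the list's median was -0.08. TAL1, the transaldolase gene, was called lower in bas1 than in ino4, with 73.4 and 149.9, as was TKL2. These were 2 of the 10 genes, against 2.78% of all compared entries, and the list's median in that comparison was -0.16. Among the minor relatives of the members, GPM2, GPM3 and ERR3 had differences of -0.41, -0.35 and -0.35 in bas1, none of them called, and ERR1 and ERR2 are listed at 0 in every genotype. GPM2 and GPM3 resemble GPM1, and the ERR genes resemble enolase. In ino4, no gene of the irreversible steps, ethanol, glycerol, pentose phosphate, gluconeogenesis or minor relatives lists was called against WT, and their medians lay between -0.08 and 0.14. Of all compared entries 1.76% were called lower and 0.683% higher in ino4, so the lack of calls does not set these short lists apart.

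**Figure D4:**
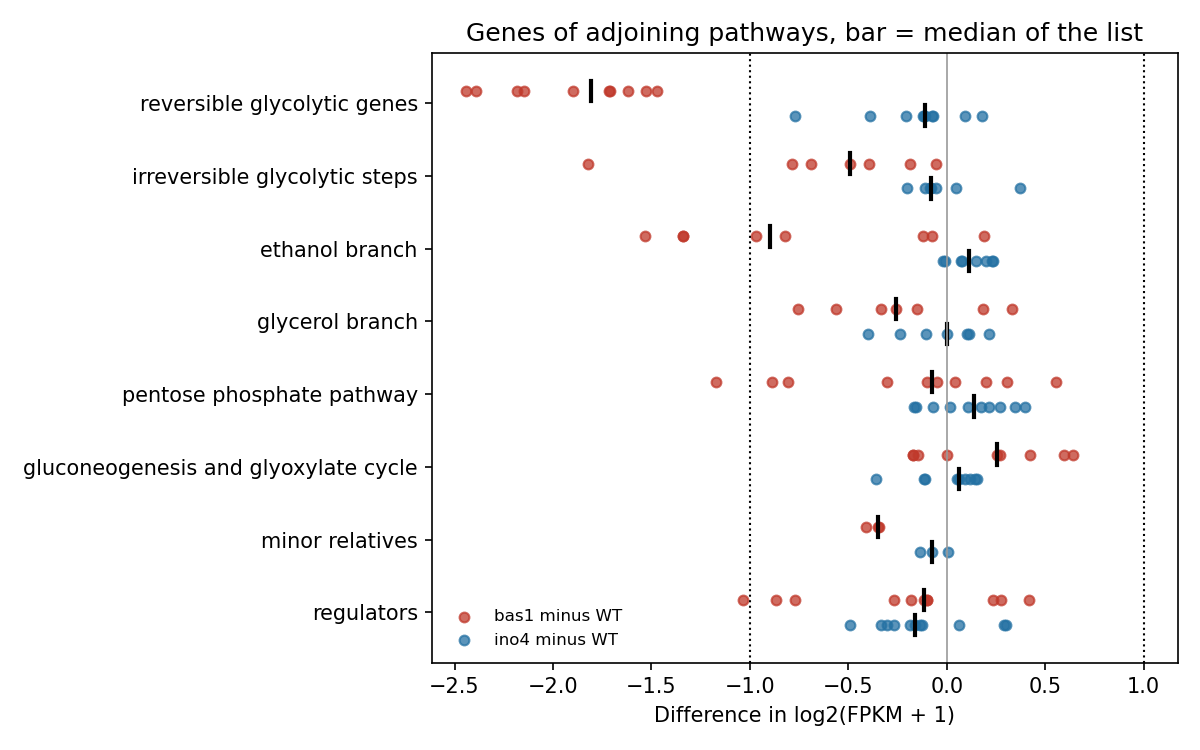
Each point is a gene's difference in log2(FPKM + 1) from WT in bas1 (red) or ino4 (blue), grouped by list, with a black bar at the list's median and dotted lines at -1 and 1. In bas1 the reversible glycolytic genes have a median of -1.81, the ethanol branch -0.90, the irreversible steps -0.49 and the gluconeogenesis and glyoxylate genes 0.25.

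Among 11 regulators of glycolysis and gluconeogenesis, 1 was called at least 2-fold lower in bas1 than in WT, against 2.34% of all compared entries. That was MIG1, the glucose repressor, at 25.2 FPKM in WT, 11.8 in bas1 and 22.8 in ino4. GCR1 had 22.4, 18.5 and 20.4, and GCR2, in an entry merged with a neighbour, had 28.5, 16.3 and 19.96. RAP1 had 112, 132 and 138. TYE7, a helix-loop-helix activator of glycolytic genes, had 100.3, 54.5 and 81.2, a 1.84-fold lower value in bas1 that was not called. HAP4, the activator of respiratory genes, had 525, 702 and 436. The list's median was -0.11 in bas1 and -0.16 in ino4. No regulator was called in ino4 against WT, where 1.76% of all compared entries were called lower and 0.683% higher.

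Promoter sequence was read by gene symbol from R64, not from the sacCer2 build of the table. In the window from 250 bases before to 50 after the start codon, both strands were searched for 5 motifs over 6001 genes. Only exact matches to the letters given were counted, so a count of 0 does not show that a factor has no site. The core of Gcr1 sites, CTTCC, was found before 5 of the 10 members (FBA1, TDH2, PGK1, GPM1 and ENO2), against 46.4% of all windows. The core of Bas1 sites, TGACTC, which is also the core of Gcn4 sites, was found before 0 of 10, against 7.98%. The core of Ino2-Ino4 sites, CATGTG, was found before ENO1 alone, against 6.93%. The E-box CACGTG, bound by Tye7 and others, was found before none (2.92% of all windows), as was the Rap1 motif (0.483%), written as ACACCC and ACA with any 2 bases between.

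In a longer window, the 600 bases before the start codon, the Gcr1 core was found before 9 of the 10, all but TDH3, against 72.9% of 5999 windows. The members held 24 matches, 2.40 per gene against 1.35 for other genes, and 5 of the 10 (PGI1, TDH2, PGK1, GPM1 and ENO2) held 3 or more, against 15.6% of all windows. TGACTC was found before FBA1, with 2 matches, and TDH1 (15.3% of all windows). CATGTG was found before TPI1, TDH1, PGK1, GPM1 and ENO1 (16.4%), and CACGTG before TDH1, TDH2 and PGK1 (7.23%). The Rap1 motif as written again had no exact match (1.07% of all windows), which does not show that Rap1 sites are absent. The following 120-base stretches are shown because they hold several Gcr1 cores close together. PGK1 holds 3 in this length, and PGI1 and TPI1 hold 2, as TDH1 and ENO1 do. The stretches end at least 100 bases before the start codon, and capitals mark CTTCC or, on the other strand, GGAAG. A match is only a description of the reference strain's sequence, and says nothing of binding in these cultures.
PGK1 (chrIII:137243-137362, plus strand): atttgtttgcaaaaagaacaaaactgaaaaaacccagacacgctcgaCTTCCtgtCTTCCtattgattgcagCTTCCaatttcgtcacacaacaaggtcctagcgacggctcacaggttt
PGI1 (chrII:614179-614298, minus strand): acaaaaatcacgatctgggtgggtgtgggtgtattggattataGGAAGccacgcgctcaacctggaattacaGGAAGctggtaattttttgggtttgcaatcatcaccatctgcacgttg
TPI1 (chrIV:556800-556919, minus strand): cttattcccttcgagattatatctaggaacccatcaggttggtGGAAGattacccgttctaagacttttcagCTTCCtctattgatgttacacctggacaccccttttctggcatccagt

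**Figure D5:**
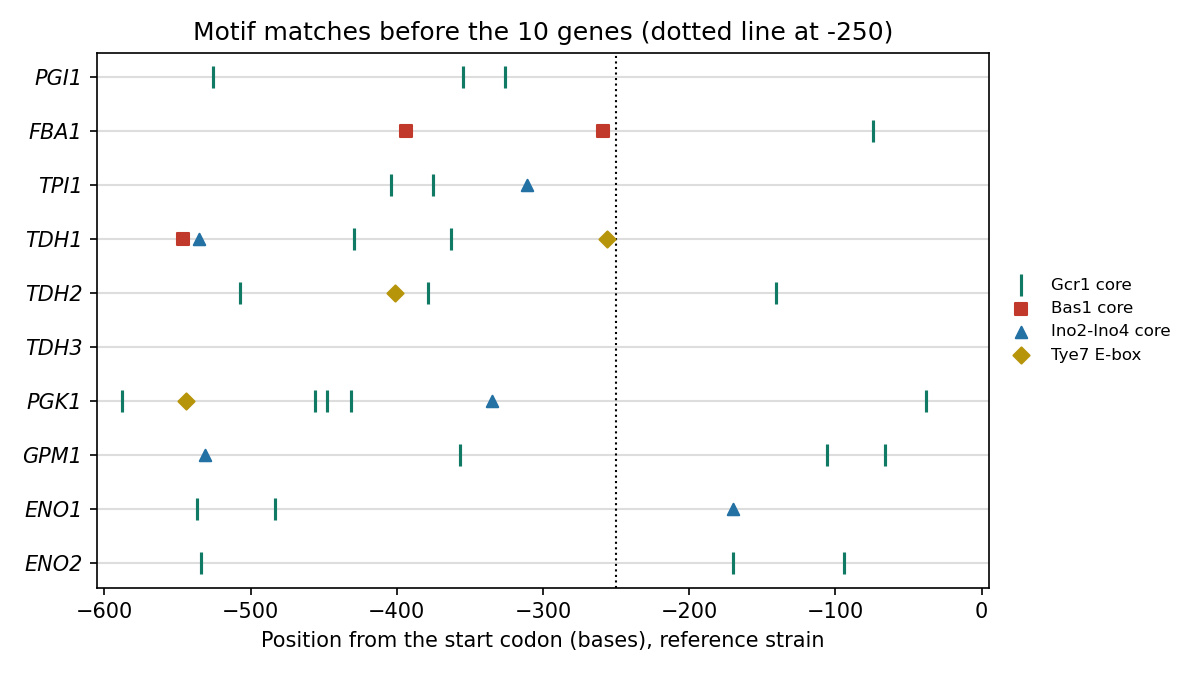
Positions of motif matches on either strand in the 600 bases before the start codon of each gene, in the R64 reference; a symbol stands for the first base of a match. Gcr1 cores lie before 9 of the 10 genes, Bas1 cores before FBA1 and TDH1 only, and TDH3 has no exact match to any motif searched.

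The pair of differences from WT that was the median of the members was -1.81 in bas1 and -0.11 in ino4. Among 1950 other compared entries with an FPKM of at least 100 in WT, the 5 nearest to it by straight distance were ICY1, YLR053C, HPT1, CDC19 and the merged entry of SRL1 and YOR248W, at distances of 0.05, 0.11, 0.11, 0.16 and 0.16 on the log2 scale. ICY1 reached 607 FPKM in WT, 176 in bas1 and 548 in ino4. HPT1, which salvages hypoxanthine and guanine, had 124, 32.8 and 121. Likeness here rests on 3 combined values per gene and carries no error.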

How the data were processed

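The deposited table holds FPKM values computed by the authors, per the file headers, 1 column for each of WT, bas1 and ino4, for 6932 entries. STAR, Cufflinks and the genome build sacCer2 are named in the submitters' processing notes, with no version. Read numbers, strand use and the way in which 2 samples became 1 value are not given in the sources used for this work. FPKM times length was searched for whole reads, and at the best unit 19.5% to 22.8% of low values came out whole within 0.05 reads, so reads could not be recovered, depth is unknown and no intervals are given.

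Compared entries (6153) reached 1 FPKM in some genotype and were above 0 in all 3. Differences were taken in log2(FPKM + 1), pseudocount 1, on the columns as deposited. Entries listed at 0 in some genotype but past the minimum (87) were left out, since an exact 0 can be a failed estimate. The planned limma test needs a value per sample, so differences were described by a 2-fold rule without p-values. The members, lists and motifs were chosen with earlier results of these data known. Named genes were the members, the targeted genes, list members at least 2-fold apart (up to the 4 largest) or else the largest difference, GCR1, GCR2, RAP1, TYE7 and the 5 nearest patterns; other list genes given for contrast were named after their values were seen. List genes were matched by symbol or RefSeq synonym, 4 of them in entries merged with a neighbour. Sequences came from the RefSeq R64 genome by gene symbol, for all 10 members. The planned comparison of proteins was replaced by one of coding sequences. The longer promoter window was added after seeing the data, as were the abundant and flanking entries. Steps were tested on simulated data and run with Python 3.11.15, pandas 2.3.3 and numpy 2.4.6.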

Additional observations from a re-analysis of the deposited data

How the results depend on the processing

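All 10 members were called at least 2-fold lower in bas1 than in WT and than in ino4 under each alternative pseudocount and scaling. The filters on low values and on entries of at least 300 bp (the latter added after seeing the data) left the members' values unchanged. Every member was above 10 FPKM in all genotypes and longer than 300 bp, so these filters could not change a call. Leaving out shared positions removed PGK1 and GPM1, and the other 8, whose values it does not alter, stayed called. The looser 1.5-fold rule keeps all such calls by its definition. The members' median ranged from -1.82 to -1.68 for bas1 against WT, -0.12 to -0.10 for ino4 against WT and -1.81 to -1.68 between the mutants. Summing the isozymes replaces the value of each gene by that of its step: the 3 TDH genes together stood at -0.12 for ino4 against WT, where TDH1 alone was at -0.77, and at -2.14 for bas1 against ino4, where TDH1 alone was at -1.13. Under the 1.5-fold rule, 1 member, TDH1, was called lower in ino4. Over all entries, that rule called 451 lower and 245 higher in bas1 against WT, 284 and 143 in ino4 against WT, and 506 and 418 between the mutants. A pseudocount of 5 gave 91 and 33 in bas1 and 56 and 16 in ino4. Higher calls in ino4 numbered 24 with an FPKM of at least 10 and 22 without shared positions, both over fewer entries. Rescaling to a fixed sum gave 91 higher calls in bas1 against WT and moved the median of all entries there to 0.13; SED1 and the merged entry of YDR133C and YDR134C, listed at 17387 in bas1 and 0 in WT and at 56536 in WT and 0 in bas1, enter that sum. No paired analysis was possible because the table has 1 column per genotype, and leaving out a replicate could not be done for the same reason.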
